A study of Caenorhabditis elegans with 6 samples.

Results

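The mRNAs described here encode proteins that build the centrosome and position the mitotic spindle of the early C. elegans embryo. They are 10 genes (spd-2, spd-5, sas-4, sas-5, sas-6, zyg-1, lin-5, gpr-1, gpr-2 and zyg-9), chosen by symbol and each standing on 1 row of a table of 46646 genes, of which 9268 had a read in any library. iCLIP uses ultraviolet light to link a protein covalently to the RNA it touches, so that each sequenced read marks RNA recovered with the protein. Mixed early embryos received 3 ultraviolet exposures of 400 mJ/cm2, and complexes were recovered with an antibody to GFP in 3 groups with 2 libraries in each. In the MEG-3::GFP group the meg-3 locus carries GFP (allele ax3054), in the PGL-1::GFP group the pgl-1 locus does (ax3122), and the control group expressed GFP alone. The strain list holds 1 transgene of GFP alone, driven by the pie-1 promoter in an unc-119(ed3) line, but the methods do not tie it to these libraries. MEG-3 and PGL-1 are proteins of P granules, the condensates of protein and RNA that pass to the germline blastomeres, so the comparison asks which mRNAs are recovered with each protein beyond the GFP background.

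A centrosome consists of a pair of centrioles inside a shell of pericentriolar material that nucleates microtubules. In C. elegans the kinase ZYG-1 starts the duplication of centrioles, SAS-5 and SAS-6 form the first part of the new centriole, and SAS-4 adds its microtubules. SPD-2 and SPD-5 assemble the pericentriolar material, and ZYG-9 promotes the growth of the microtubules that leave it. LIN-5 with GPR-1 and GPR-2 links the membrane to dynein at the cortex, and the pull on astral microtubules places the spindle off centre in the zygote. The proteins are supplied by the mother to the embryo.

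The libraries differed widely in depth, from 14040 to 280007 reads on genes, with the lowest totals in GFP (26531 and 14040) and in PGL-1::GFP replicate 1 (21180). The number of genes with a read did not rise with depth throughout. MEG-3::GFP replicate 1 spread 225609 reads over 3130 genes, while replicate 2 spread 280007 over 6461. The 92593 reads of PGL-1::GFP replicate 2 covered 7961 genes, and the 26531 of GFP replicate 1 covered 4170. PGL-1::GFP replicate 1 covered 1025 and GFP replicate 2 covered 2013. Limits for a 0 below cover counting error only. Why MEG-3::GFP replicate 1 held few genes for its depth was not tested. Protein-coding genes held from 83.5% of the reads in GFP replicate 2 to 98.4% in MEG-3::GFP replicate 2. Levels below are counts per 1000000 reads on genes (CPM). Counting error alone lets a gene at 0 stand for as many as 3 reads, or 10.7 CPM in the deepest MEG-3::GFP library but 214 CPM in GFP replicate 2. As a check of the labels, the mRNA of each tagged gene had its highest level in a library of its own protein, but the groups were not clear of each other for meg-3. Its level was 8803 and 2268 CPM with MEG-3::GFP and 5619 and 292 CPM with PGL-1::GFP, while pgl-1 stood at 2502 and 259 CPM with PGL-1::GFP and at 195 and 118 CPM with MEG-3::GFP. As a check of the tissue, all 5 maternal transcripts (pos-1, mex-5, nos-2, pie-1 and mex-1) had reads in 5 of the libraries, and 2 of the 5 did in GFP replicate 2. Of 6 genes of differentiated tissue, vit-6, col-19 and msp-142 had no read in any library. In GFP replicate 2 the muscle myosin gene unc-54 had 27 reads. These 6 genes together had 28 there (1994 CPM), as many as the 5 maternal transcripts. The 6 genes also had 24 reads in PGL-1::GFP replicate 2 (259 CPM) and 9 in GFP replicate 1 (339 CPM). The MEG-3::GFP libraries held 1 and 7 such reads, and PGL-1::GFP replicate 1 held 0. The part of such tissue in the GFP and PGL-1::GFP values was not tested. The study's text calls the MEG-3::GFP experiments independent, but the labels do not say whether the libraries of a group came from separate cultures, so the spread between them may be technical. A lower read share of an mRNA may come from less of it in the embryos, from fewer cells that hold it or from less recovery with the protein, and these cannot be told apart here.

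Of the 10 mRNAs, zyg-9 had the most reads with MEG-3::GFP, followed by spd-2, and the 2 genes together held 83.0% (replicate 1) and 59.9% (replicate 2) of the reads on all 10. Reads on spd-5 and lin-5 were fewer and present in both MEG-3::GFP libraries. The mRNAs of the centriole proteins had reads in 1 MEG-3::GFP library at most, and gpr-1 and gpr-2 had almost none in any library. With PGL-1::GFP the members were seen almost wholly in replicate 2, where spd-5 and zyg-9 led. The plot of the 10 genes by library shows these levels.

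**Figure D1:**
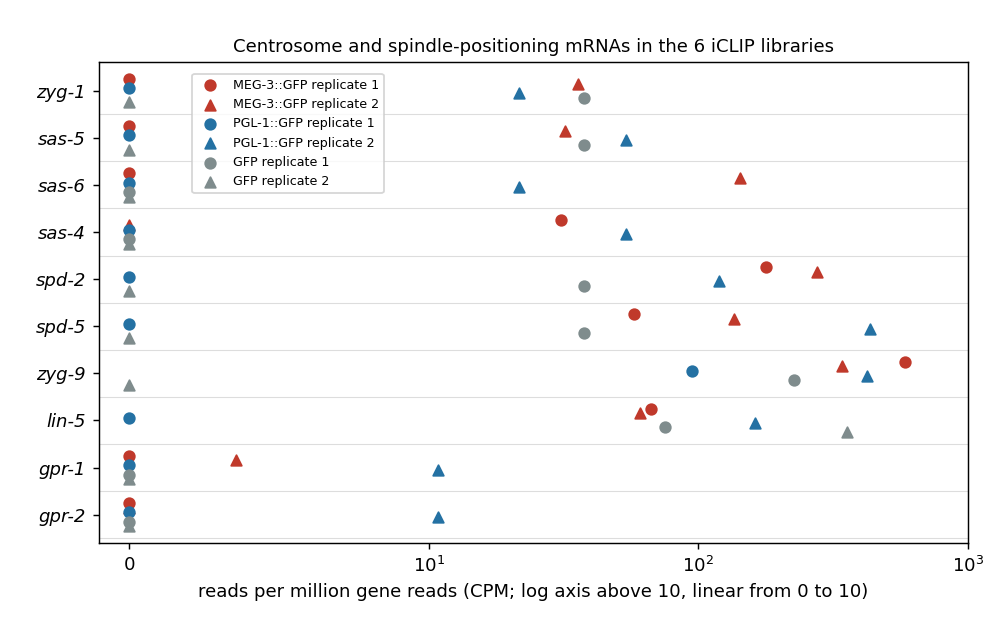
CPM of each of the 10 mRNAs (rows) in each of the 6 libraries (points, colour for the group and shape for the replicate), on an axis that is linear from 0 to 10 and logarithmic above. zyg-9 reached 581 and 339 CPM in MEG-3::GFP, while the observed values of gpr-1 and gpr-2 stayed under 11 CPM in every library.

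Among the mRNAs of spindle and microtubule proteins, zyg-9 encodes a microtubule polymerase of the XMAP215 family that works with the TACC protein TAC-1. Its gene spans 8457818 to 8464512 of chromosome II (WBcel235). The MEG-3::GFP libraries held 131 (replicate 1) and 95 (replicate 2) zyg-9 reads, the PGL-1::GFP libraries 2 and 39, and the GFP libraries 6 and 0. Both MEG-3::GFP libraries thus stood above both GFP libraries by CPM (581 and 339 against 226 and 0), while PGL-1::GFP replicate 2, at 421 CPM, lay between the MEG-3::GFP values. The 95% Wilson interval ran from 489 to 689 CPM in MEG-3::GFP replicate 1 and from 278 to 415 in replicate 2, so the replicates differed by more than counting error. As a group MEG-3::GFP stood at 460 ± 171 CPM (SD, n = 2), PGL-1::GFP at 258 ± 231 and GFP at 113 ± 160. At the pooled MEG-3::GFP share, the GFP libraries would hold 18.1 zyg-9 reads in all, and they held 6. The ratio of pooled shares was 3.02, with an exact interval of 1.37 to 8.32 for counting error only, and 1.98 (0.894 to 5.44) without GFP replicate 2. Among all genes zyg-9 ranked 473 and 729 by reads in the MEG-3::GFP libraries.

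The pericentriolar material is represented by spd-2 and spd-5. The gene spd-2 (chromosome I, 8966985 to 8970081, WBcel235) encodes the relative of human CEP192 that recruits pericentriolar material and is also needed for centriole duplication. Counts of spd-2 were 40 and 77 with MEG-3::GFP, 0 and 11 with PGL-1::GFP, and 1 and 0 with GFP alone. Its level with MEG-3::GFP was 226 ± 69.1 CPM (SD, n = 2), against 59.4 ± 84.0 with PGL-1::GFP and 18.8 ± 26.7 with GFP, and both MEG-3::GFP libraries lay above the other 4. The pooled share was 9.39 times that of GFP, but with 1 GFP read the exact interval for counting error ran from 1.65 to 374, and without GFP replicate 2 the ratio was 6.14 (1.08 to 245). The limit that 0 reads leave in GFP replicate 2, 214 CPM, lies above the 177 CPM of MEG-3::GFP replicate 1, so that library alone cannot separate the groups.

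The coiled-coil protein SPD-5 is the main scaffold of the pericentriolar material, and its gene lies on chromosome I from 5171285 to 5176654 (WBcel235). Counts of spd-5 were 13 and 38 with MEG-3::GFP, 0 and 40 with PGL-1::GFP, and 1 and 0 with GFP alone. The highest level was that of PGL-1::GFP replicate 2, 432 CPM with a Wilson interval of 317 to 588, and it lay above the MEG-3::GFP levels of 57.6 and 136 CPM. In PGL-1::GFP replicate 1 a gene at 0 stands for as much as 141.6 CPM by the limit of 3 reads, or 181 CPM by the Wilson limit. Both limits lie under 317 CPM, so the PGL-1::GFP libraries disagreed on spd-5 by more than counting error. The pooled MEG-3::GFP share was 0.287 times that of PGL-1::GFP (exact interval 0.186 to 0.445 for counting error). It was 0.164 times without MEG-3::GFP replicate 2 and 0.386 times without MEG-3::GFP replicate 1. All 40 PGL-1::GFP reads came from 1 library. Both MEG-3::GFP levels of spd-5 lie under the limit that 0 reads leave in GFP replicate 2 (214 CPM). In the annotation spd-5 shares 29 bp with hcp-6 (144 and 8 reads with MEG-3::GFP), and spd-2 shares 20 bp with mdt-31.

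The 4 mRNAs of centriole assembly were read little and unevenly. The gene sas-6 (chromosome IV, 13786945 to 13788731, WBcel235), whose conserved product is the core of the new centriole, was seen with 0 and 40 reads beside MEG-3::GFP, 0 and 2 beside PGL-1::GFP, and none beside GFP alone. Its level in MEG-3::GFP replicate 2 was 143 CPM (Wilson interval 105 to 195), while the limit for 0 reads in replicate 1 is 13.3 CPM. The 2 MEG-3::GFP libraries thus disagreed on sas-6, and their mean of 71.4 CPM describes neither. Over both GFP libraries 3.21 sas-6 reads would be held at the pooled MEG-3::GFP share, just past the 3 taken here as the limit for a count of 0. That share comes wholly from the 40 reads of MEG-3::GFP replicate 2, so no difference from GFP can be read from it.

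The mRNA of the kinase ZYG-1, relative of Plk4, gave 10 reads in MEG-3::GFP replicate 2, 2 in PGL-1::GFP replicate 2 and 1 in GFP replicate 1, and none elsewhere. The same libraries held 9, 5 and 1 reads of sas-5, and the others none. The sas-4 mRNA, which codes for the CPAP relative, was the reverse within MEG-3::GFP, with 7 reads in replicate 1 and 0 in replicate 2, and its other 5 reads were in PGL-1::GFP replicate 2. Observed values of all 3 stayed under 60 CPM in every library, though by the limit of 3 reads a 0 allows 214 CPM in GFP replicate 2. For each, the pooled MEG-3::GFP share would give under 1 read in the GFP libraries (0.802 for zyg-1, 0.722 for sas-5 and 0.562 for sas-4). No difference between groups was detectable for them at this depth. The span of zyg-1 (chromosome II, 5649748 to 5654422) contains the whole of bli-2, a gene with no read in any library.

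Of the mRNAs for spindle positioning, lin-5 (chromosome II, 7860659 to 7863563, WBcel235) encodes the coiled-coil relative of NuMA that holds dynein at the cortex. Its counts were 15 and 17 with MEG-3::GFP, 0 and 15 with PGL-1::GFP, and 2 and 5 with GFP alone. The MEG-3::GFP replicates stood close together, at 66.5 and 60.7 CPM, and both lay below the GFP values of 75.4 and 356 CPM. lin-5 was the 1 member read in GFP replicate 2, where 5 reads made 356 CPM with a Wilson interval of 152 to 833. The pooled MEG-3::GFP share was 0.367 times that of GFP (exact interval 0.159 to 0.985, counting error only). This ratio turned on the GFP library. It was 0.840 (0.214 to 7.23) without GFP replicate 2, the library with the most unc-54 reads. Without GFP replicate 1 it was 0.178 (0.0687 to 0.584). The GFP level of 216 ± 199 CPM (SD, n = 2) spanned the MEG-3::GFP level of 63.6 ± 4.08.

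The genes gpr-1 (chromosome III, 8628926 to 8630776) and gpr-2 (chromosome III, 9391330 to 9393164) encode GoLoco proteins that bind the G alpha subunits and LIN-5. They are near-identical copies, so short reads from them may be left out or split by the counting, and their values are uncertain. In all, gpr-1 had 1 read in MEG-3::GFP replicate 2 and 1 in PGL-1::GFP replicate 2, and gpr-2 had 1 in PGL-1::GFP replicate 2. Neither had a read in GFP.

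A threshold of 60 reads, the background level that the methods set from the GFP libraries, was applied to each library of a group. There zyg-9 was the 1 member of 10 that passed in MEG-3::GFP, against 7.86% of the 8299 protein-coding genes with a read. A share of 1 in 10 is near that background and says nothing particular of the members. Nearest to the threshold stood spd-2, with 77 reads in replicate 2 and 40 in replicate 1, and without replicate 1 both genes passed. In PGL-1::GFP 0 of 10 passed (0.217% of the same genes), as in GFP. The threshold rests on raw reads, and 60 reads correspond to 266 and 214 CPM in MEG-3::GFP but to 2262 and 4274 CPM in GFP. In PGL-1::GFP they correspond to 2833 and 648 CPM, above the level of every member in any library. The 0 there can thus not be set against the count in MEG-3::GFP.

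**Figure D2:**
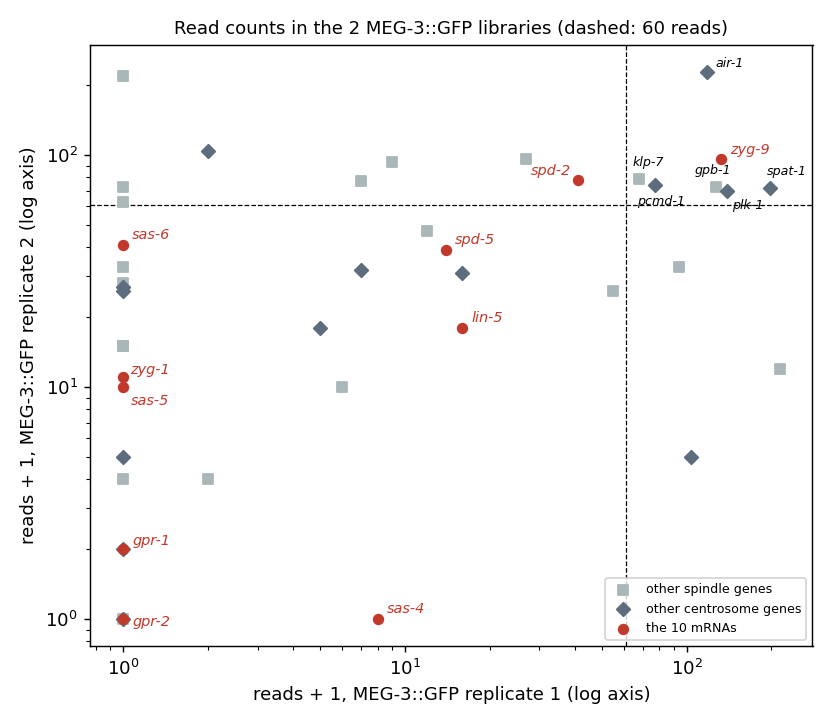
Reads plus 1 in MEG-3::GFP replicate 1 (x, log axis) and replicate 2 (y, log axis) for the 10 mRNAs (circles), 14 other centrosome genes (diamonds) and 20 other spindle genes (squares), with dashed lines at 60 reads. zyg-9 (131 and 95 reads) and 6 of the other genes lie past both lines, and sas-6 (0 and 40) lies on the left edge.

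Between the MEG-3::GFP replicates, 5 of the 10 members had 0 reads in replicate 1 (63.8% of protein-coding genes with a read did) and 2 had 0 in replicate 2 (25.4%). The uneven counts were of a kind found across the table. Among 786 protein-coding genes with 30 to 50 reads in replicate 2, 42.2% had 0 in replicate 1, and their quartiles there were 0 and 45 reads, a span that holds sas-6 (0) and spd-5 (13). Among 456 genes with 70 to 110 reads in replicate 2, the median in replicate 1 was 49.5 reads and the upper quartile 110. The 40 reads of spd-2 lay near that median, and the 131 reads of zyg-9 lay past the upper quartile. Over the 10 members Spearman's rho between the replicates was 0.636, which rests on genes of the same pair of libraries. In PGL-1::GFP replicate 1, 9 of 10 members had 0 reads (87.9% of the same genes), and in replicate 2 none did (13.6%).

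Together the 10 mRNAs took 0.0913% and 0.102% of the gene reads with MEG-3::GFP, 0.00944% and 0.131% with PGL-1::GFP, and 0.0452% and 0.0356% with GFP alone. The MEG-3::GFP libraries lay above the GFP libraries, and the PGL-1::GFP libraries were the lowest and the highest of all 6. As group means these were 0.0969 ± 0.00791% (SD, n = 2) in MEG-3::GFP, 0.0701 ± 0.0857% in PGL-1::GFP and 0.0404 ± 0.00680% in GFP. The Wilson interval of MEG-3::GFP replicate 1 (0.0797 to 0.105%) stood just clear of that of GFP replicate 1 (0.0259 to 0.0790%) and overlapped that of GFP replicate 2 (0.0152 to 0.0833%), which rests on 5 reads. Without zyg-9 the other 9 mRNAs took 0.0332% and 0.0686% in MEG-3::GFP and 0.0226% and 0.0356% in GFP, and the groups overlapped. In MEG-3::GFP zyg-9 alone held 63.6% of the reads on the 10 mRNAs in replicate 1 and 33.1% in replicate 2.

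**Figure D3:**
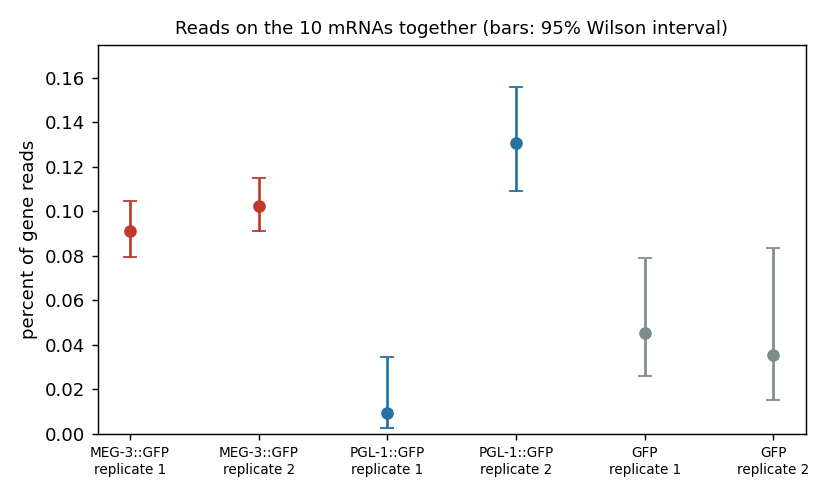
Reads on the 10 mRNAs together as a percent of all gene reads in each library (points), with 95% Wilson intervals for counting error (bars). Both MEG-3::GFP libraries (0.0913% and 0.102%) lie above both GFP libraries (0.0452% and 0.0356%), and PGL-1::GFP spans the range from 0.00944% to 0.131%.

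By CPM, 3 of the 10 members (zyg-9, spd-2 and spd-5) were higher in both MEG-3::GFP libraries than in both GFP libraries, against 13.3% of protein-coding genes with a read, and 1 (lin-5) was lower in both, against 4.57%. Both MEG-3::GFP libraries were above both PGL-1::GFP libraries for spd-2 alone (11.2% of the same genes). No member was higher in both PGL-1::GFP libraries than in both GFP libraries (2.88%), and 9 of the 10 had no read in PGL-1::GFP replicate 1. These counts turn on few GFP reads: 8 of the 10 members had at most 1 read in each GFP library, and 4 had none in either (44.2% of the same genes). In GFP replicate 1 there were 4 members at 0 (51.5%), and in GFP replicate 2 there were 9 (78%). Without MEG-3::GFP replicate 1 the first count was 5, with sas-6 and gpr-1 added, the latter on 1 read. The share of all genes under that looser rule was not computed, and 13.3% does not apply to it.

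Across all 6 libraries, the difference between groups was tested with edgeR's quasi-likelihood test. The default filter on low counts kept 2033 genes (21.9% of those with a read), among them zyg-9 and spd-2. The other 8 members were too thinly read to be tested there. MEG-3::GFP over GFP gave a log2 fold change of 2.24 for zyg-9 (standard error 2.61) and 3.66 for spd-2 (3.75), each with an adjusted p of 0.999 (edgeR with Benjamini-Hochberg adjustment). The median of all genes tested was 0.73 in this contrast after TMM scaling, so zyg-9 stood 1.51 above the typical gene. The gene spd-2 passed the filter through its MEG-3::GFP reads, which in part fixes its direction. Each fold change was smaller than its standard error. The common dispersion of this fit over all genes was 1.93. With GFP replicate 2 left out, the log2 fold change was 1.17 for zyg-9 and 2.75 for spd-2, beside a median of 0.61 over all genes of that fit. With GFP replicate 1 left out it was 8.90 for zyg-9 and 7.99 for spd-2, beside a median of 5.70, and these values depend on the prior count since GFP then has no read of either.

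For PGL-1::GFP over GFP the log2 fold changes were 1.30 for zyg-9 (standard error 2.56) and 1.76 for spd-2 (3.61), each with an adjusted p of 0.999 in the same edgeR test. Leaving out 1 library moved the whole table along with zyg-9. Without PGL-1::GFP replicate 2 its value was -0.56 where the median gene stood at -5.75, and without GFP replicate 1 it was 7.96 where the median was 4.94. For spd-2 the value was 1.01 without GFP replicate 2 and 6.04 without GFP replicate 1. MEG-3::GFP over PGL-1::GFP gave 0.95 for zyg-9 (2.45) and 1.90 for spd-2 (3.26), with an adjusted p of 1 for both from edgeR. Here the median of all genes was 0.88, so zyg-9 lay close to the median gene, and without PGL-1::GFP replicate 1 its value was -0.03, beside a median of -0.02. Without that library spd-2 stood at 0.82.

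Over all 2033 genes edgeR called 0 in each contrast at an adjusted p of 0.05 (0% in each), and an unadjusted p under 0.05 was reached by 3.1% of genes for MEG-3::GFP against GFP, 0.787% for PGL-1::GFP against GFP and 1.28% for MEG-3::GFP against PGL-1::GFP. DESeq2 called 3, 1 and 0 genes in these contrasts. No member was among the genes counted here. For MEG-3::GFP against GFP, DESeq2 gave an adjusted p to 2440 of 9268 genes and to 3 of the 10 members (spd-5, lin-5 and zyg-9). The other members could not be called there. In a fit of all 9268 genes with a read, the lowest unadjusted p of a member was 0.307, for sas-6 in MEG-3::GFP against GFP (adjusted p = 1, edgeR), and with DESeq2 it was 0.249, for spd-5 in PGL-1::GFP against GFP (adjusted p = 1). With 2 libraries a group, a p that misses the threshold leaves differences of these sizes possible. The GFP libraries carry another style of library name than the tagged ones, and a batch that these names may mark cannot be told apart from the control group.

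Levels can be set between genes only per length, taken here as the gene from start to end, introns included, which lowers the values of genes with long introns. Per kb, spd-2 reached 57.2 and 88.8 CPM in MEG-3::GFP replicates 1 and 2, and zyg-9 86.7 and 50.7. Both stood above lin-5 (22.9 and 20.9) and spd-5 (10.7 and 25.3) in each library. In replicate 2 sas-6, with a span of 1787 bp, reached 79.9 CPM per kb, next to spd-2. By the mean the order was spd-2, zyg-9, sas-6, lin-5, spd-5, sas-5, zyg-1, sas-4, gpr-1 and gpr-2. In all 9 steps of this order the neighbours differed by less than the larger of their SDs.

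**Figure D4:**
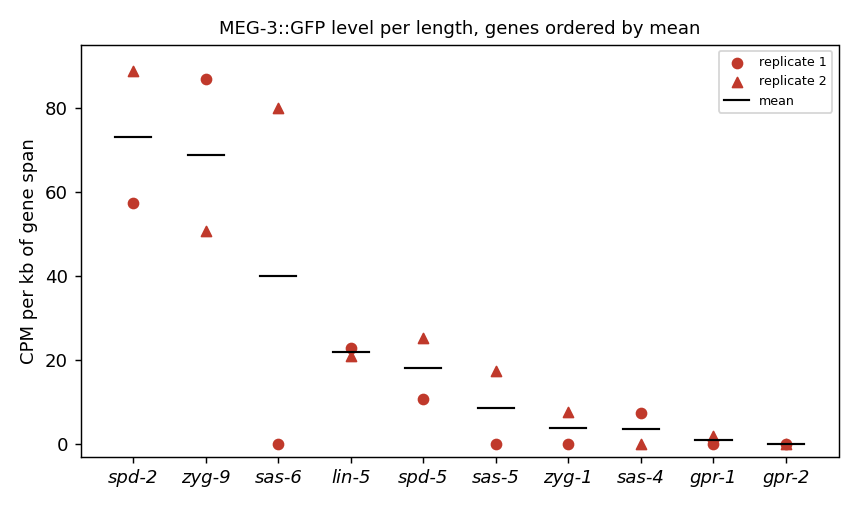
MEG-3::GFP level of each mRNA as CPM per kb of gene span, for replicate 1 (circles), replicate 2 (triangles) and their mean (lines), ordered by the mean. spd-2 (57.2 and 88.8) and zyg-9 (86.7 and 50.7) lead, and sas-6 is split between 0 and 79.9.

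The gene whose reads over the 6 libraries were most like those of zyg-9 was abi-1, a subunit of the actin-regulating WAVE complex, whose counts were 139 and 144 with MEG-3::GFP, 2 and 43 with PGL-1::GFP, and 4 and 0 with GFP alone (Euclidean distance of log2 CPM plus 10, 0.823). It was followed by the glucosidase gene aagr-3 (0.995) and by ech-1.2 (1.01), which codes for an enzyme of fatty acid oxidation. This likeness is only a description over the same 6 libraries, which differ widely in depth.

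Other genes of the centrosome were set beside the members. Of 14 (sas-1, sas-7, pcmd-1, hyls-1, tac-1, tbg-1, gip-1, gip-2, mzt-1, air-1, plk-1, spat-1, rsa-1 and rsa-2), 4 reached 60 reads in each MEG-3::GFP library, against 7.86% of protein-coding genes with a read. These were the Aurora A kinase gene air-1 (117 and 227 reads), the Polo kinase gene plk-1 (138 and 69), its activator spat-1 (197 and 71), and pcmd-1 (76 and 73), whose product anchors pericentriolar material at the centriole. With GFP alone the counts were 32 and 2 for air-1, 10 and 9 for plk-1, 6 and 2 for spat-1, and 5 and 0 for pcmd-1. By CPM, spat-1 and pcmd-1 were higher in both MEG-3::GFP libraries than in both GFP libraries, and air-1 and plk-1 were not.

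The reads of partner proteins' mRNAs were spread over the libraries in other ways. Counts of the ZYG-9 partner gene tac-1 were 6 and 31 with MEG-3::GFP, 46 and 5 with PGL-1::GFP, and 0 and 2 with GFP alone, so its PGL-1::GFP reads came mostly from the replicate in which zyg-9 had 2. The gene tbg-1, for gamma-tubulin, was read 25 times in MEG-3::GFP replicate 2 and 12 times in GFP replicate 1, with 0 in the replicate of each. The gene rsa-2, whose product brings a phosphatase to the centrosome, was read 15 and 30 times with MEG-3::GFP, 121 and 35 times with PGL-1::GFP, and 2 and 0 times with GFP alone, and was named after its values were seen. It was the 1 gene of both lists with an unadjusted p under 0.05, for PGL-1::GFP over GFP. The log2 fold change was 5.73 (standard error 2.79) and the adjusted p 0.999 in edgeR. Its phosphatase partner rsa-1 was read 1 and 103 times with MEG-3::GFP and 0 and 7 times with PGL-1::GFP.

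Of 20 genes for cortical force and the spindle (goa-1, gpa-16, gpb-1, let-99, rgs-7, ric-8, csnk-1, lis-1, dnc-1, dnc-2, dhc-1, nud-2, tpxl-1, cls-2, klp-7, ebp-2, zyg-8, bub-1, hcp-1 and spd-1), 2 reached 60 reads in both MEG-3::GFP libraries, a share near the 7.86% of all protein-coding genes. They were gpb-1 (126 and 72 reads), for the G beta subunit, and klp-7 (67 and 78), for a kinesin that depolymerizes microtubules. gpb-1 was also read 85 and 134 times with PGL-1::GFP, the 1 gene of both lists at the threshold there (0.217% of protein-coding genes), and 25 and 6 times with GFP alone. For klp-7 the counts were 0 and 17 with PGL-1::GFP and 4 and 0 with GFP alone. Another 8 of the 20 passed in 1 MEG-3::GFP library and not in the other, with the widest gaps in bub-1 (213 and 11) and csnk-1 (0 and 218). The share of all protein-coding genes that did so was not computed, so this cannot be called a trait of the list. By CPM, 4 of the 20 were higher in both MEG-3::GFP libraries than in both GFP libraries and 3 were lower, and of the 14 centrosome genes 2 were higher and 1 was lower. Over all protein-coding genes these shares were 13.3% and 4.57%.

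In the edgeR fit 5 of the 14 and 11 of the 20 genes passed the filter on low counts. For MEG-3::GFP over GFP their median log2 fold change was 1.34 and 1.93, beside 0.73 for all genes tested. For MEG-3::GFP over PGL-1::GFP it was 0.89 and -0.35, beside 0.88. Some of these genes, such as let-99 (1 and 0 reads with GFP alone) and cls-2 (0 and 1), passed the filter through tagged libraries. That in part fixes their direction against GFP, so the medians over GFP are a description only. In edgeR 0 genes of either list were called at an adjusted p of 0.05 in any contrast, nor in DESeq2, and at an unadjusted p under 0.05 rsa-2 was the 1 gene with either tool. For MEG-3::GFP against GFP, DESeq2 gave no adjusted p to some genes of each list.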

How the data were processed

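The deposited values are raw read counts per gene in 6 libraries. The authors removed adaptors and randomized barcodes, mapped the rest to ws235 by HISAT2 (2.1.0 in the submitters' processing notes), removed PCR duplicates and summed reads by gene in HTSeq-count. The annotation and the counting options, strand included, are not given in the sources used here. Columns were matched to libraries by protein, the second of each pair being the library titled a replicate. The 438 identifiers on more than 1 row carry identical counts and were used once.

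Members and gene lists were chosen with earlier results of these data known. Gene spans came from the RefSeq table of WBcel235, matched by sequence name, which also placed 4 list genes that lack a symbol in the table. The text names the 10 members, list genes at 60 reads in both MEG-3::GFP libraries or past the adjusted threshold, the tagged genes and the 3 genes nearest to the member with the highest mean MEG-3::GFP CPM. Genes named for other reasons were named after their values were seen.

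Groups were compared by the quasi-likelihood test of edgeR 4.0.16 under R 4.3.3 (TMM, default filter, Benjamini-Hochberg adjustment over all genes tested) in 1 fit of 6 libraries, with DESeq2 1.42.0 as an alternative. Standard errors were derived from the fold change and its F statistic. Intervals for shares are 95% Wilson intervals, those for pooled ratios exact, and both cover counting error only. Other steps used Python 3.11.15, pandas 2.3.3, SciPy 1.17.1 and matplotlib 3.10.9.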

Additional observations from a re-analysis of the deposited data

How the results depend on the processing

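At 30 reads in each MEG-3::GFP library or 60 in either, 2 members passed (zyg-9 and spd-2), and at 100 reads in each or after scaling to the median library total, 0 did. With 1 replicate left out the number ran from 1 to 2. The count of members above both GFP libraries in CPM ran from 3 to 5 with 1 library left out. Shares over all genes were not computed for these alternative counts. Without zyg-9, a choice made after seeing the data, the mean summed share was 0.0509% in MEG-3::GFP and 0.0291% in GFP. Over all genes, DESeq2 called 3 for MEG-3::GFP against GFP and 1 for PGL-1::GFP against GFP, and edgeR on the libraries of the groups compared called 2 for MEG-3::GFP against GFP, none of them a member. With 1 library left out edgeR called 0 in each contrast. The log2 fold change of zyg-9 ran from -0.56 to 7.96 for PGL-1::GFP over GFP and from -0.030 to 2.53 for MEG-3::GFP over PGL-1::GFP with 1 library left out, in fits whose median over all genes lay at -5.75 and 4.94 and at -0.02 and 4.88. The other alternatives of zyg-9, and those of spd-2 that gave a value, kept their direction. For spd-2 the value ran from 2.75 to 7.99 for MEG-3::GFP over GFP and from 1.01 to 6.04 for PGL-1::GFP over GFP. It ran from 0.82 to 1.95 for MEG-3::GFP over PGL-1::GFP. Ratios of pooled shares and medians with 1 library left out were added after seeing the data. In 3 of the 6 leave-one-out fits (without MEG-3::GFP replicate 1, MEG-3::GFP replicate 2 or PGL-1::GFP replicate 2) spd-2 did not pass the filter and has no value. Its direction was thus not checked with a MEG-3::GFP library left out, and passing the filter through MEG-3::GFP reads in part fixes it. With library size in place of TMM the median of all genes for MEG-3::GFP over GFP was 0.25, and zyg-9 stood at 1.80. The order of the members per kb of coding sequence was not run, because coding lengths were not used here. No paired analysis was possible because the labels give no numbers that pair libraries across groups. The GFP totals limit what can be seen, since 3 reads there are 113 and 214 CPM.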
